A study of Homo sapiens with 11 samples.

Results

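Voltage-gated sodium channels, voltage-gated calcium channels and hyperpolarization-activated pacemaker channels carry the inward currents of the heart cell. Their subunits were followed here in human cardiomyocyte cultures kept for up to 113 days. The genes come from the deposited count table by their symbols: those whose symbols name a sodium channel subunit (SCN), a calcium channel alpha1, alpha2delta, beta or gamma subunit (CACNA1, CACNA2D, CACNB, CACNG) or an HCN channel. That rule used no measured value. Of the 19990 genes in the table, 35 are described here: 8 sodium alpha, 3 sodium beta, 10 calcium alpha1, 4 alpha2delta, 4 calcium beta, 4 calcium gamma and 2 HCN genes.

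All samples were culture wells labelled as cardiomyocytes, made at passage 63 from WTC11, an established human iPSC line (iPSC, induced pluripotent stem cell). Markers of other cell types were present too and are given below. A single differentiation was driven with the GSK3 inhibitor CHIR99021 and then the Wnt secretion inhibitor IWP2, and its wells stayed in RPMI1640 medium with B27 and insulin. For poly(A) RNA sequencing, 4 wells were collected on Day 30, 3 on Day 60 and 4 on Day 113, and no other treatment or genotype was compared. The wells share their differentiation, so each test measures only the spread between wells, and day of culture cannot be told apart from collection. The 11 libraries held 24071375 to 34546715 counts. Summed over 10 genes of the sarcomere, calcium release and cardiac transcription factor NKX2-5, cardiomyocyte markers stood at 32091 to 43947 counts per 1000000 counts (CPM) on Day 30, 38876 to 44316 on Day 60 and 33795 to 37687 on Day 113, and none of the 10 was near 0. On Day 113 against Day 30, 2 of the 10 were higher and 2 lower (edgeR adjusted p under 0.05). Between those days the mean of MYH7 went from 15412 to 9277 CPM and that of TNNT2 from 2748 to 4334.

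Each sodium or calcium channel has a pore-forming alpha subunit, around which smaller subunits assemble. In the working heart, sodium channels carry the action potential upstroke, and CACNA1C encodes the L-type calcium channel that triggers calcium release. CACNA1D (L-type), CACNA1G and CACNA1H (T-type) and the HCN channels are best known from the sinus node and from immature heart muscle, where they take part in spontaneous beating, and HCN4 is the main pacemaker channel of the sinus node.

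A RefSeq promoter entry (build GRCh38.p14) was matched for 26 of the 35 genes, with 40 windows in all. Windows of 4 genes are shown, without the bases after the start site, because their genes stand for the outcomes described below: CACNA1D and CACNG6, which fell, CACNA2D1, which rose, and CACNA1C, the main calcium pore, which passed no test. Each line is the 250 bases before the RefSeq start, written 5′ to 3′ on the gene's strand, with GC boxes (GGGCGG on either strand) in capitals. The windows lie at chr3:53494361-53494610 (plus strand), chr19:53991387-53991636 (plus), chr7:82443957-82444206 (minus) and chr12:2052737-2052986 (plus), and no annotated exon falls inside them.
CACNA1D: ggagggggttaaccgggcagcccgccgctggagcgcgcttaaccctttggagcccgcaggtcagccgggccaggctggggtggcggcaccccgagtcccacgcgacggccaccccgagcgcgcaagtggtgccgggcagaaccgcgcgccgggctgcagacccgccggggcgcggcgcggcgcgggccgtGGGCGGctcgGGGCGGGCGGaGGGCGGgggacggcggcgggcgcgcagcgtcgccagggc
CACNG6: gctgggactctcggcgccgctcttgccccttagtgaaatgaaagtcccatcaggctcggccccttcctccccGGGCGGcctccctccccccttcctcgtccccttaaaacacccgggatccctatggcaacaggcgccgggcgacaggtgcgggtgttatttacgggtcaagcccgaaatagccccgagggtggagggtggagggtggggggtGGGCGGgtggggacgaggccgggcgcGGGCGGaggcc
CACNA2D1: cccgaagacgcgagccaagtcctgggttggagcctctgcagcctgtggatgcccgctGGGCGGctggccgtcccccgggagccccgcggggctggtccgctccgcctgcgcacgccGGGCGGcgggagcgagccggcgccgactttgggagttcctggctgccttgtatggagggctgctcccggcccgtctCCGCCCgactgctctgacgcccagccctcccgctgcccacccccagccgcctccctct
CACNA1C: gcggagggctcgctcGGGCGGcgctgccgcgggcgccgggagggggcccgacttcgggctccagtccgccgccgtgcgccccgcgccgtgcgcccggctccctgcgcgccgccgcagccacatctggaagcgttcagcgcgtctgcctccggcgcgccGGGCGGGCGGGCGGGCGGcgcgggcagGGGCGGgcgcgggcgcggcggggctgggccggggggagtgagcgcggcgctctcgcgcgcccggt
The GC content of these windows was 81.6%, 69.2%, 75.6% and 85.6% in the order shown, against a median of 58.0% over all 35116 windows and 65.2% over the 40 windows of the channel genes. GC boxes numbered 4, 3, 3 and 6, so the gene that passed no test had the most. In all, 22 of the 40 channel windows held a GC box, against 42.6% of all windows. Of the other motifs searched on both strands, the sequence AGATAA, read by GATA factors, was in 1 of the 40 windows, AGGTGT (T-box factors) in 3 and TNAAGTG (NKX2-5) in 2. The MEF2 motif was in 0, the CCAAT box in 10 and the TATA box (TATAAA) in 1. Over all windows, the shares holding these motifs were 9.17%, 9.57%, 8.73%, 2.36%, 32.0% and 10.7% in the same order. A match describes letters in a window and is not a binding site.

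Of the 35 channel genes, 31 had a mean of at least 1 CPM on some day and 10 of at least 10. Genes were called at an adjusted p under 0.05 in edgeR's quasi-likelihood test, and 19 channel genes were called in at least 1 pair of days. Between Day 30 and Day 60, 6 of 35 (17.1%) were called, 4 higher and 2 lower, where 10.3% of all genes were called (4.39% higher, 5.91% lower). The number called higher was 1 without Day 60 well 2 (with 3 lower), and 2 without Day 30 well 1, 3 or 4 or Day 60 well 1 and in limma-voom (with 2 lower). From Day 60 to Day 113 the count was 13 of 35 (37.1%), 7 higher and 6 lower, against 24.0% of all genes (12.9% higher, 11.1% lower). Day 113 against Day 30 gave 16 of 35 (45.7%), 8 in each direction, against 34.5% of all genes (17.3% higher, 17.2% lower). The median log2 fold change of the channel genes was 0.04, 0.12 and 0.48 in these comparisons, beside -0.01, 0.00 and -0.02 over all genes. Any change over the 3 days was called for 18 channel genes (51.4%), against 37.1% of all genes. CACNA1H, CACNG6 and SCN2B were called in both intervals. Without Day 60 well 1, the count for Day 113 against Day 60 was 7, with 4 higher and 3 lower. The number called higher in that comparison was 3 without Day 60 well 3 (with 7 lower), and 4 without Day 30 well 3, Day 60 well 2 or Day 113 well 1, 3 or 4 (with 5 or 6 lower). DESeq2 called 13 higher and 9 lower on Day 113 against Day 30. The comparisons share wells, so their counts are not independent of each other.

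**Figure D1:**
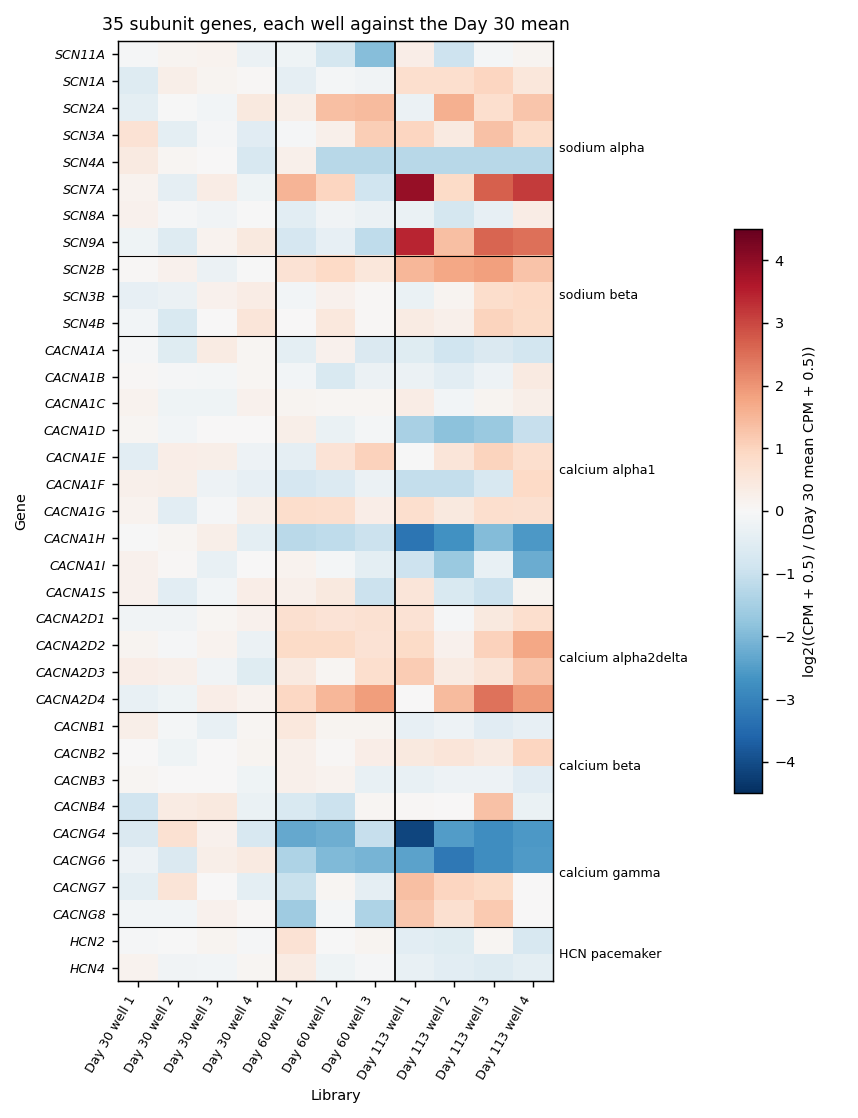
Change of 35 channel genes in each of the 11 libraries, as log2((CPM + 0.5) / (Day 30 mean CPM + 0.5)), with genes in rows by class and libraries in columns by day. Values run from -4.12 (blue) to 3.92 (red). SCN7A and SCN9A are red and CACNA1H, CACNG4 and CACNG6 blue in the Day 113 columns, while CACNA1C stays pale throughout.

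SCN9A and SCN7A, sodium channels best known from sensory neurons and glia, were low until Day 60 and higher on Day 113. These are bulk libraries, in which a smaller share of cells of a type and less RNA per cell cannot be told apart. Values are always given in well order. SCN9A was at 0.955, 0.600, 1.32 and 1.72 CPM on Day 30, 0.479, 0.774 and 0.252 on Day 60 and 17.4, 3.71, 9.56 and 8.62 on Day 113. All Day 113 wells were above all earlier wells, with a more than 4-fold range among themselves. The Day 113 level was 19.6-fold that of Day 60 (log2 fold change 4.30, SE 0.56, edgeR adjusted p = 7.59e-05) and 8.54-fold that of Day 30 (adjusted p = 8.57e-05), whereas Day 60 against Day 30 had a log2 fold change of -1.20 (adjusted p = 0.183). The late change exceeded the early one by 5.50 on the log2 scale (SE 1.02, adjusted p = 0.00378), in a comparison of the intervals that called 5 of 35 channel genes (14.3%), 2 with the higher and 3 with the lower late change. The same comparison called 9.34% of all genes (4.97% higher, 4.38% lower). That excess was 6.38 without Day 60 well 2 and 4.82 without Day 60 well 3, and its adjusted p was 0.125 in limma-voom.

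SCN7A, an atypical sodium channel that senses sodium level, had 0.535, 0.200, 0.691 and 0.309 CPM on Day 30, 2.20, 1.33 and 0 on Day 60 and 13.7, 1.20, 5.48 and 7.86 on Day 113. Well 2 of Day 113 lay below a Day 60 well, so those days overlapped, while no Day 113 well overlapped Day 30. SCN7A was 16.1-fold higher on Day 113 than on Day 30 (log2 fold change 4.01, SE 0.86, edgeR adjusted p = 0.0019). Its call between Day 60 and Day 113 (log2 fold change 2.58, adjusted p = 0.0435) was lost without any of 9 of the 11 wells (Day 30 wells 1 to 4, Day 60 wells 2 and 3, and Day 113 wells 1, 3 and 4), with adjusted p of 0.0503 to 0.115, and also in DESeq2 (0.0862) and limma-voom (0.0883). The log2 fold change itself was 3.43 without Day 60 well 1 and 1.99 without Day 60 well 3.

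Markers of some other cell types, though not of neurons, were also higher on Day 113 than on Day 60. All 6 endothelial markers tested were higher on Day 113 than on Day 60 and Day 30, and their summed CPM ran from 53.7 to 77.9 on Day 30, from 38.9 to 61.8 on Day 60 and from 185 to 749 on Day 113. Day 113 well 1 had the highest endothelial sum and the highest SCN9A and SCN7A. Below it, well 3 came next for the endothelial sum and for SCN9A, and well 4 for SCN7A. The lowest endothelial sum was in well 4, and the lowest SCN9A and SCN7A in well 2. Fibroblast markers (7 genes) summed to 3353 to 7706, 2068 to 3569 and 5427 to 13033 CPM, with 4 higher and 1 lower on Day 113 than on Day 60. Their Day 30 and Day 113 sums overlapped. Neuronal markers, of which 7 of 10 listed were in the table, summed to 47.5 to 73.1, 52.7 to 69.2 and 49.0 to 58.0 CPM, with 0 called on Day 113 against Day 60. Glial markers (5 genes) summed to 2.83 to 4.43, 5.23 to 9.69 and 3.52 to 34.3 CPM, the highest in Day 113 well 3, with 1 higher on Day 113 than on Day 60 and S100B at or under 3 counts in every Day 30 well. Smooth muscle markers (5 of 6 listed) summed to 816 to 1160 CPM on Day 30 and 857 to 1029 on Day 60. On Day 113 they summed to 1080 to 1545 CPM, the highest in well 1. Of these 5, 3 were higher and 0 lower on Day 113 than on Day 60. The smooth muscle myosin MYH11, also listed, was not in the table. The part of these cell types in the rise of SCN9A and SCN7A was not tested.

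**Figure D2:**
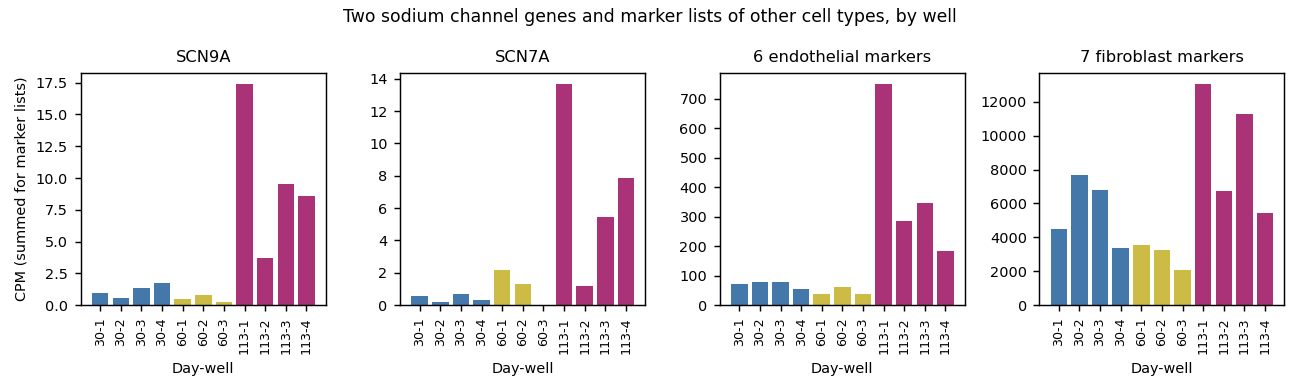
CPM of SCN9A and SCN7A and summed CPM of 6 endothelial and 7 fibroblast markers in each well, with bars starting at 0 and coloured by day (blue Day 30, yellow Day 60, purple Day 113). Day 113 well 1 has the tallest bar in every panel, 17.4 CPM for SCN9A, 13.7 for SCN7A, 749 for the endothelial and 13033 for the fibroblast markers.

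SCN1A, a neuronal sodium channel, was low at 0.458, 1.20, 1.05 and 0.962 CPM on Day 30, 0.574, 0.848 and 0.757 on Day 60 and 1.88, 1.91, 2.25 and 1.52 on Day 113. Its Day 113 wells were all above the earlier ones, but the call against Day 60 (log2 fold change 1.38, SE 0.48, edgeR adjusted p = 0.0496) was lost without any of 10 of the 11 wells (all but Day 30 well 1), with adjusted p of 0.0589 to 0.144. SCN4A, the skeletal muscle sodium channel, had counts in all 4 Day 30 wells and in Day 60 well 1, and 0 counts in Day 60 wells 2 and 3 and all Day 113 wells. Against a floor of 3 counts per library, which covers counting error only, SCN4A was at least 6.67-fold lower on Day 113 than on Day 30 (adjusted p = 0.0126). The Day 113 against Day 60 call for SCN4A, at least 2.94-fold lower (adjusted p = 0.0448), rested on Day 60 well 1 alone: without it, both days had 0 counts. It was also lost without any of 8 other wells, with adjusted p of 0.0524 to 0.0794. Skeletal muscle markers (5 of 8 listed) summed to 285 to 383 CPM on Day 30, 526 to 799 on Day 60 and 445 to 573 on Day 113. Most of that sum was CKM, with day means of 287, 550 and 429 CPM. The listed MYF5, PAX7 and MYH8 were not in the table. MYOD1 and MYOG were at or under 3 counts in every Day 30 well, and their highest day means were 0.525 and 0.835 CPM. The other sodium alpha genes, SCN2A, SCN3A, SCN8A and SCN11A, were called in no pair of days, with SCN8A highest at 8.32 ± 0.943 (SD, n = 4), 6.71 ± 0.864 (n = 3) and 7.06 ± 2.49 CPM (n = 4).

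Among the sodium beta subunits, which modulate gating and anchor the channel at the membrane, SCN2B was called and SCN3B and SCN4B were not. SCN2B stood at 4.28, 4.74, 3.26 and 3.98 CPM on Day 30, 6.67, 8.03 and 5.93 on Day 60 and 12.2, 14.7, 16.1 and 10.5 on Day 113. The 3 days did not overlap and were in rising order. SCN2B was 1.95-fold higher on Day 113 than on Day 60 (log2 fold change 0.96, SE 0.21, edgeR adjusted p = 0.00385) and 3.29-fold higher than on Day 30 (adjusted p = 7.49e-06). The early step (1.69-fold, adjusted p = 0.0287) was lost without Day 30 well 1, 3 or 4 or Day 60 well 1 or 2 (adjusted p of 0.0542 to 0.115) and in limma-voom (0.0726).

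SCN4B, which lies next to SCN2B on chromosome 11, was at 1.45, 0.834, 1.68 and 2.61 CPM on Day 30, 1.66, 2.51 and 1.73 on Day 60 and 2.28, 2.02, 3.79 and 3.37 on Day 113. Its wells overlapped across all days, and Day 113 against Day 30 gave a log2 fold change of 0.80 (SE 0.38, adjusted p = 0.122). No pair of days was called for SCN4B or for SCN3B, which stood at 3.49 ± 0.942, 3.60 ± 0.429 and 4.99 ± 2.01 CPM (SD, n = 4, 3 and 4).

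The calcium pores diverged: CACNA1C stayed level, CACNA1G rose early, and CACNA1H and CACNA1D fell. CACNA1C, the L-type pore of the working heart, stood at 377, 299, 300.2 and 389.6 CPM on Day 30, 373, 359.5 and 364 on Day 60 and 430.2, 311, 373 and 412 on Day 113. All days overlapped, and the log2 fold change from Day 30 to Day 113 was 0.16 (SE 0.12, adjusted p = 0.317). CACNA1D, the L-type pore that opens at lower voltage, was at 40.7, 34.4, 38.2 and 38.0 CPM on Day 30, 45.5, 30.8 and 35.7 on Day 60 and 13.6, 10.2, 11.4 and 18.3 on Day 113. Days 30 and 60 overlapped and every Day 113 well was below both. CACNA1D fell 2.79-fold from Day 60 to Day 113 (log2 fold change -1.48, SE 0.18, edgeR adjusted p = 4.24e-05), after an early log2 fold change of -0.02 (adjusted p = 0.972). The intervals differed by -1.46 (SE 0.30, adjusted p = 0.00769), a call lost without Day 60 well 1 (0.0838). Exons of CACNA1D and CHDH overlap on opposite strands by 1399 bp, and CHDH was called in no pair of days.

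CACNA1G, the main T-type pore of the adult heart, had 117, 73.6, 101 and 124 CPM on Day 30, 181, 177 and 128 on Day 60 and 177, 139.5, 177 and 172 on Day 113. The later wells were all above Day 30, and Days 60 and 113 overlapped. CACNA1G was 1.60-fold higher on Day 113 than on Day 30 (log2 fold change 0.68, SE 0.15, edgeR adjusted p = 0.00239). Its early call, 1.56-fold (adjusted p = 0.0179), was lost without Day 30 well 3 or Day 60 well 1 or 2 (adjusted p of 0.0512 to 0.0802). CACNA1H, the T-type pore known from the fetal heart, stood at 40.3, 43.9, 48.8 and 30.2 CPM on Day 30, 17.2, 18.4 and 20.4 on Day 60 and 3.78, 5.74, 10.1 and 6.34 on Day 113. No day overlapped another, in falling order. CACNA1H fell 2.19-fold in the first interval (log2 fold change -1.13, SE 0.24, edgeR adjusted p = 0.00716), 2.87-fold in the second (adjusted p = 0.000379) and 6.28-fold overall (adjusted p = 5.71e-07).

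CACNA1I, the third T-type gene, was far lower at 5.00, 4.47, 3.26 and 4.29 CPM on Day 30, 4.85, 3.94 and 3.03 on Day 60 and 1.99, 1.01, 3.25 and 0.521 on Day 113. Its call for Day 113 against Day 30 (log2 fold change -1.31, SE 0.42, edgeR adjusted p = 0.0239) was lost without Day 30 well 1, Day 30 well 2 or Day 113 well 2 (adjusted p of 0.052 to 0.064). The other alpha1 genes, the neuronal CACNA1A, CACNA1B and CACNA1E, the retinal CACNA1F and the skeletal muscle CACNA1S, were called in no pair of days and had at most 6.98 CPM as a day mean. Endodermal markers (6 genes) also fell, from summed CPM of 428 to 1258 on Day 30 to 46.7 to 52.3 on Day 60 and 11.9 to 39.8 on Day 113, with FOXA2 at or under 3 counts in every Day 60 well. Their part in the fall of CACNA1H was not tested.

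Count ratios within a library, which do not depend on scaling between libraries, gave the same order. On the log2 scale the ratio of CACNA1G to CACNA1H was 1.34 ± 0.56 (SD, n = 4) on Day 30, 3.10 ± 0.40 (n = 3) on Day 60 and 4.76 ± 0.59 (n = 4) on Day 113. As plain counts, CACNA1G reads outnumbered CACNA1H reads 1.68 to 4.09 times in the Day 30 wells, 6.24 to 10.5 times in the Day 60 wells and 17.5 to 46.6 times in the Day 113 wells. The days did not overlap. Exact two-sided permutation tests gave p = 0.0286 for Day 113 against Day 30 and p = 0.0571 for each interval, the smallest values that 4 against 4 and 3 against 4 wells allow, and 0.137 after adjustment over 12 tests. That is also the smallest adjusted value reached, and no ratio test passed the threshold. With so few wells no outcome could have passed it after adjustment over 12 tests, so this decides nothing about the ratios.

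The log2 ratio of CACNA1D to CACNA1C was -3.17 ± 0.16 (SD, n = 4) on Day 30, -3.31 ± 0.26 (n = 3) on Day 60 and -4.86 ± 0.25 (n = 4) on Day 113. Day 113 did not overlap the earlier days (exact permutation p = 0.0286 against Day 30 and 0.0571 against Day 60, adjusted 0.137). Days 30 and 60 overlapped (exact permutation p = 0.4).

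**Figure D3:**
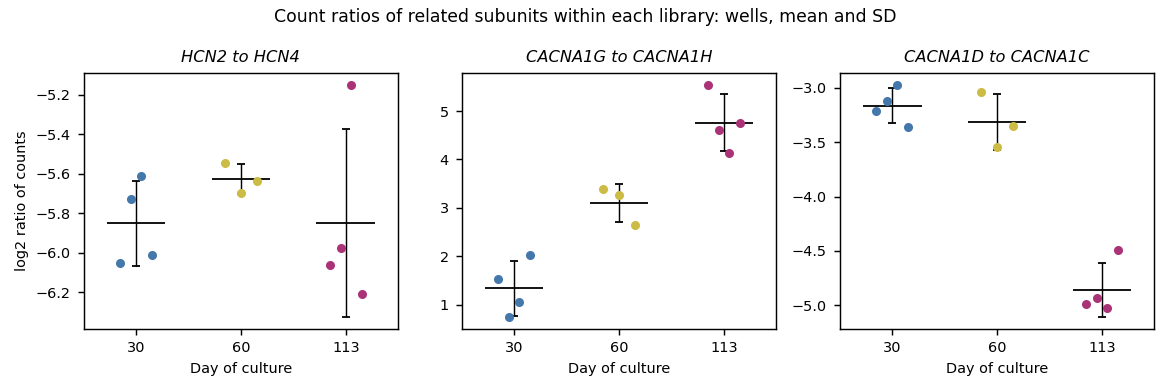
Log2 count ratios of 3 subunit pairs in each library (points), with the mean (line) and SD (bars) of each day, on axes that differ between panels. CACNA1G to CACNA1H climbs from a mean of 1.34 to 4.76 without overlap, CACNA1D to CACNA1C drops on Day 113 only, and HCN2 to HCN4 overlaps between all days.

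Scaled to exon length (CPM per kb of annotated exon, a length that is not the authors' own), levels can be set side by side between genes. CACNA1C and CACNA1G were the leading alpha1 genes, at 19.6 ± 2.79 and 11.9 ± 2.55 CPM per kb on Day 30 (SD, n = 4) and 21.9 ± 3.01 and 19.1 ± 2.06 on Day 113 (n = 4). CACNA1C was above CACNA1G in each of the 11 libraries. In the Day 113 wells CACNA1C stood at 24.7, 17.8, 21.4 and 23.6 CPM per kb and CACNA1G at 20.3, 16.0, 20.3 and 19.7. CACNA1C made up 47.5%, 45.5% and 49.7% of the summed alpha1 CPM per kb on Days 30, 60 and 113. CACNA1G went from 28.6% to 39.9% and 43.5%, CACNA1H from 12.3% to 4.96% and 1.82%, and CACNA1D from 8.04% to 7.02% and 2.63%. Among the 3 T-type genes alone, the CACNA1G share was 68.3%, 87.3% and 95.3%. These shares are descriptions and were not tested.

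**Figure D4:**
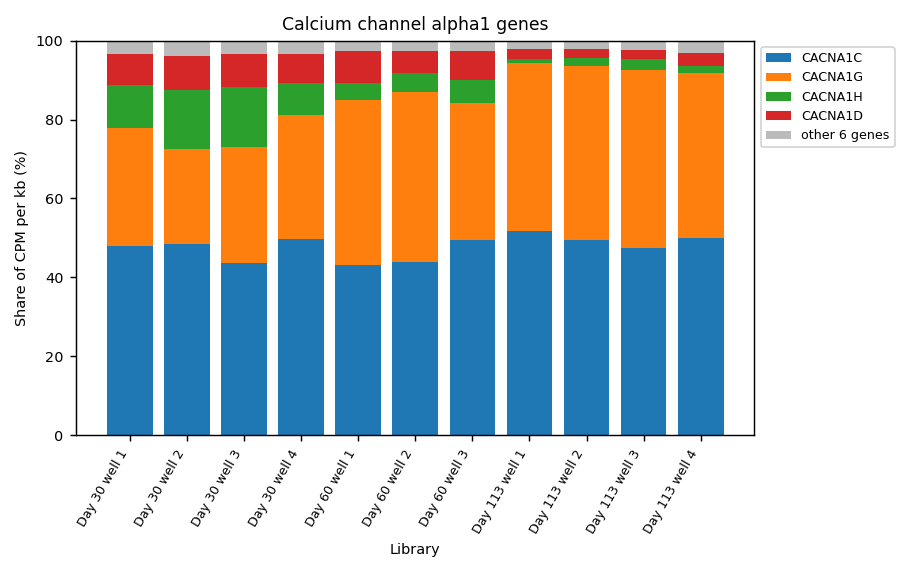
Shares (%) of the summed CPM per kb within the 10 calcium alpha1 genes, stacked from 0 to 100 in each of the 11 libraries. The CACNA1H band shrinks from Day 30 to Day 113 as the CACNA1G band widens, from mean shares of 12.3% to 1.82% and of 28.6% to 43.5%.

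Alpha2delta subunits bring calcium channels to the membrane, and 3 of the 4 genes were higher on Day 113 than on Day 30, where 17.3% of all genes were. CACNA2D1, the main cardiac one, was at 53.9, 54.1, 63.2 and 68.9 CPM on Day 30, 99.3, 92.5 and 97.8 on Day 60 and 94.4, 57.1, 82.2 and 102 on Day 113. Day 60 lay above Day 30 without overlap, and Day 113 well 2 fell back into the Day 30 range. CACNA2D1 was 1.61-fold higher on Day 60 than on Day 30 (log2 fold change 0.69, SE 0.15, edgeR adjusted p = 0.00935). Its call for Day 113 against Day 30 (log2 fold change 0.48, adjusted p = 0.0161) was lost without Day 30 well 1, Day 30 well 2 or Day 113 well 4 (0.0504 to 0.0597). The intervals differed by -0.89 (adjusted p = 0.0499), a call lost without any of 7 wells (Day 30 wells 1 to 3, all Day 60 wells and Day 113 well 3), at 0.0711 to 0.162.

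CACNA2D2 had 4.09, 3.60, 4.18 and 3.06 CPM on Day 30, 7.12, 7.19 and 6.12 on Day 60 and 7.10, 4.35, 8.13 and 13.5 on Day 113. Both later days lay above Day 30 without overlap. Day 113 against Day 30 was called at 2.21-fold (log2 fold change 1.15, SE 0.28, edgeR adjusted p = 0.00468). Exons of CACNA2D2 and CYB561D2 overlap by 404 bp on opposite strands. CACNA2D4 went from 0.0764, 0.133, 0.395 and 0.309 CPM on Day 30 to 0.894, 1.55 and 2.18 on Day 60 and 0.231, 1.46, 3.42 and 2.25 on Day 113. All Day 60 wells were above Day 30, but Day 113 well 1 was within the Day 30 range. CACNA2D4 was called at 7.87-fold for Day 113 against Day 30 (adjusted p = 0.00512, but 0.11 in limma-voom). Its early call (adjusted p = 0.0316) was lost without Day 30 well 1, 2 or 4 or Day 60 well 2 or 3, at 0.0529 to 0.117, and was 0.169 in limma-voom. CACNA2D3 was called in no pair of days, at 0.742 ± 0.320, 1.18 ± 0.384 and 1.78 ± 0.668 CPM (SD, n = 4, 3 and 4).

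Of the 4 intracellular beta subunits, which traffic the pore and set its gating, CACNB2 rose and CACNB1 fell between Day 60 and Day 113, and the other two were called in no pair of days. CACNB2, the main cardiac beta, was at 147, 126, 144 and 158 CPM on Day 30, 171, 151 and 177 on Day 60 and 197, 208, 192 and 279 on Day 113. Day 113 lay above both earlier days, and those 2 overlapped. CACNB2 was 1.52-fold higher on Day 113 than on Day 30 (log2 fold change 0.61, SE 0.12, edgeR adjusted p = 0.00092). Its call against Day 60 (1.32-fold, adjusted p = 0.0337) was lost without any one of the 3 Day 60 wells or Day 113 well 4 (0.0668 to 0.131).

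CACNB1, the skeletal muscle beta that the heart also makes, stood at 34.7, 27.5, 23.3 and 31.2 CPM on Day 30, 40.6, 31.8 and 32.1 on Day 60 and 22.4, 24.6, 20.1 and 22.3 on Day 113. Day 113 lay below Day 60 without overlap and overlapped Day 30. CACNB1 fell 1.56-fold from Day 60 to Day 113 (log2 fold change -0.64, SE 0.14, edgeR adjusted p = 0.00473). Against Day 30 the call (log2 fold change -0.38, adjusted p = 0.0372) was lost without any of 7 wells (Day 30 wells 1, 2 and 4, Day 60 well 3, and Day 113 wells 1, 3 and 4), at 0.0504 to 0.14. The intervals differed by -0.90 (adjusted p = 0.0364), a call lost without any of 6 wells (Day 30 wells 2 and 3, all Day 60 wells and Day 113 well 3), at 0.0501 to 0.211. CACNB3 (38.4 ± 3.08, 39.5 ± 7.86 and 30.5 ± 2.90 CPM, SD, n = 4, 3 and 4) and CACNB4 were called in no pair of days. Of the summed beta CPM per kb, CACNB2 held 49.2%, 50.9% and 64.9% on the 3 days.

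Gamma subunits include regulators of calcium channels and of AMPA-type glutamate receptors, and their levels were low. CACNG6 was at 7.03, 5.10, 9.91 and 10.96 CPM on Day 30, 2.84, 1.70 and 1.55 on Day 60 and 1.15, 0.450, 0.770 and 1.00 on Day 113. The days did not overlap and were in falling order. CACNG6 fell 4.06-fold in the first interval (log2 fold change -2.02, SE 0.38, edgeR adjusted p = 0.00274) and 9.69-fold overall (adjusted p = 5.23e-06). The second step (log2 fold change -1.25, adjusted p = 0.0226) was lost without Day 60 well 1 (0.128) or Day 113 well 3 (0.0508) and in limma-voom (0.138).

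CACNG4 had 5.04, 13.5, 9.51 and 4.78 CPM on Day 30, 1.24, 1.40 and 3.75 on Day 60 and 0, 1.01, 0.742 and 0.963 on Day 113. Again no day overlapped another. Only Day 113 against Day 30 was called, 12.3-fold lower (log2 fold change -3.62, SE 0.67, edgeR adjusted p = 0.000614, with a log2 fold change of -4.73 in limma-voom). The fall of CACNG6 and CACNG4 ran beside the fall of the endodermal markers given above. Within Day 30 the endodermal sum was 1151, 1258, 959 and 428 CPM in well order. CACNG6 was lowest in well 2 and highest in well 4, and CACNG4 was highest in well 2 and lowest in well 4. The part of the endodermal cells in either fall was not tested.

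CACNG7 and CACNG8 adjoin CACNG6 on chromosome 19, in the order CACNG7, CACNG8, CACNG6. From Day 60 to Day 113 both rose while CACNG6 fell. CACNG8 was at 3.25, 3.27, 4.21 and 3.78 CPM on Day 30, 0.862, 3.43 and 1.07 on Day 60 and 9.15, 6.22, 8.79 and 3.69 on Day 113. Day 113 lay above Day 60 without overlap, with well 4 inside the Day 30 range. CACNG8 rose 3.92-fold from Day 60 to Day 113 (log2 fold change 1.97, SE 0.44, edgeR adjusted p = 0.00459), and the log2 fold change was 2.85 without Day 60 well 2. Day 60 against Day 30 gave a log2 fold change of -1.03 (adjusted p = 0.159), which was -1.90 (adjusted p = 0.00924) without Day 60 well 2. Day 113 against Day 30 was not called (log2 fold change 0.94, adjusted p = 0.0689), although it was in limma-voom (0.0357) and DESeq2 (0.0448) and without Day 60 well 1 or 2 or Day 113 well 4 (0.0198 to 0.0435). The late change exceeded the early one by 3.00 (adjusted p = 0.0299), which was 4.75 without Day 60 well 2 and lost its call without Day 30 well 3 (0.0521), Day 60 well 1 (0.149, with an excess of 2.30) or Day 60 well 3 (0.151).

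CACNG7 had 0.573, 1.67, 0.987 and 0.584 CPM on Day 30, 0.223, 1.03 and 0.599 on Day 60 and 3.20, 2.36, 2.17 and 0.963 on Day 113. Day 113 well 4 overlapped the earlier days. Day 60 against Day 30 had a log2 fold change of -0.63 (adjusted p = 0.618) and Day 113 against Day 30 one of 1.19 (adjusted p = 0.108). The call against Day 60 (log2 fold change 1.82, SE 0.62, edgeR adjusted p = 0.0442) was lost without any of 6 wells (Day 30 well 3, Day 60 wells 1 and 3, and Day 113 wells 1 to 3), at 0.0559 to 0.151.

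Of the pacemaker channels, HCN4 was level until Day 60 and lower on Day 113. HCN4 stood at 298, 241, 249 and 289 CPM on Day 30, 350.2, 238 and 257 on Day 60 and 215, 192, 179 and 197 on Day 113. Days 30 and 60 overlapped, and every Day 113 well was below both, with Day 60 well 1 the highest of all. HCN4 fell 1.38-fold from Day 30 to Day 113 (log2 fold change -0.46, SE 0.12, edgeR adjusted p = 0.00731) and 1.44-fold from Day 60 (adjusted p = 0.00779, but 0.0632 without Day 60 well 1).

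HCN2, the HCN channel of the working ventricle, had 4.47, 4.54, 5.07 and 4.47 CPM on Day 30, 7.47, 4.57 and 5.14 on Day 60 and 3.20, 3.04, 5.02 and 2.65 on Day 113. All days overlapped, and Day 113 against Day 60 had a log2 fold change of -0.72 (SE 0.27, adjusted p = 0.0688). The count ratio of HCN2 to HCN4 overlapped between all days, with an exact permutation p = 1 for Day 113 against Day 30. HCN4 had the highest CPM per kb of the 35 genes on Day 30, at 37.3 ± 3.97 (SD, n = 4), and on Day 113 stood at 27.1 ± 2.07 (n = 4), within the spread of CACNB2 at 28.5 ± 5.28, which was above HCN4 in 3 of those 4 wells. Sinus node markers (SHOX2, TBX3, TBX18, ISL1, VSNL1 and BMP4) summed to 116 to 162 CPM on Day 30, 148 to 222 on Day 60 and 164 to 207 on Day 113. Most of that sum was TBX18, with day means of 98.3, 138 and 158 CPM. Between Day 60 and Day 113, 3 of the 6 markers were lower and 0 higher, and between Day 30 and Day 113, 3 were higher and 3 lower. The part of these markers in the fall of HCN4 was not tested.

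**Figure D5:**
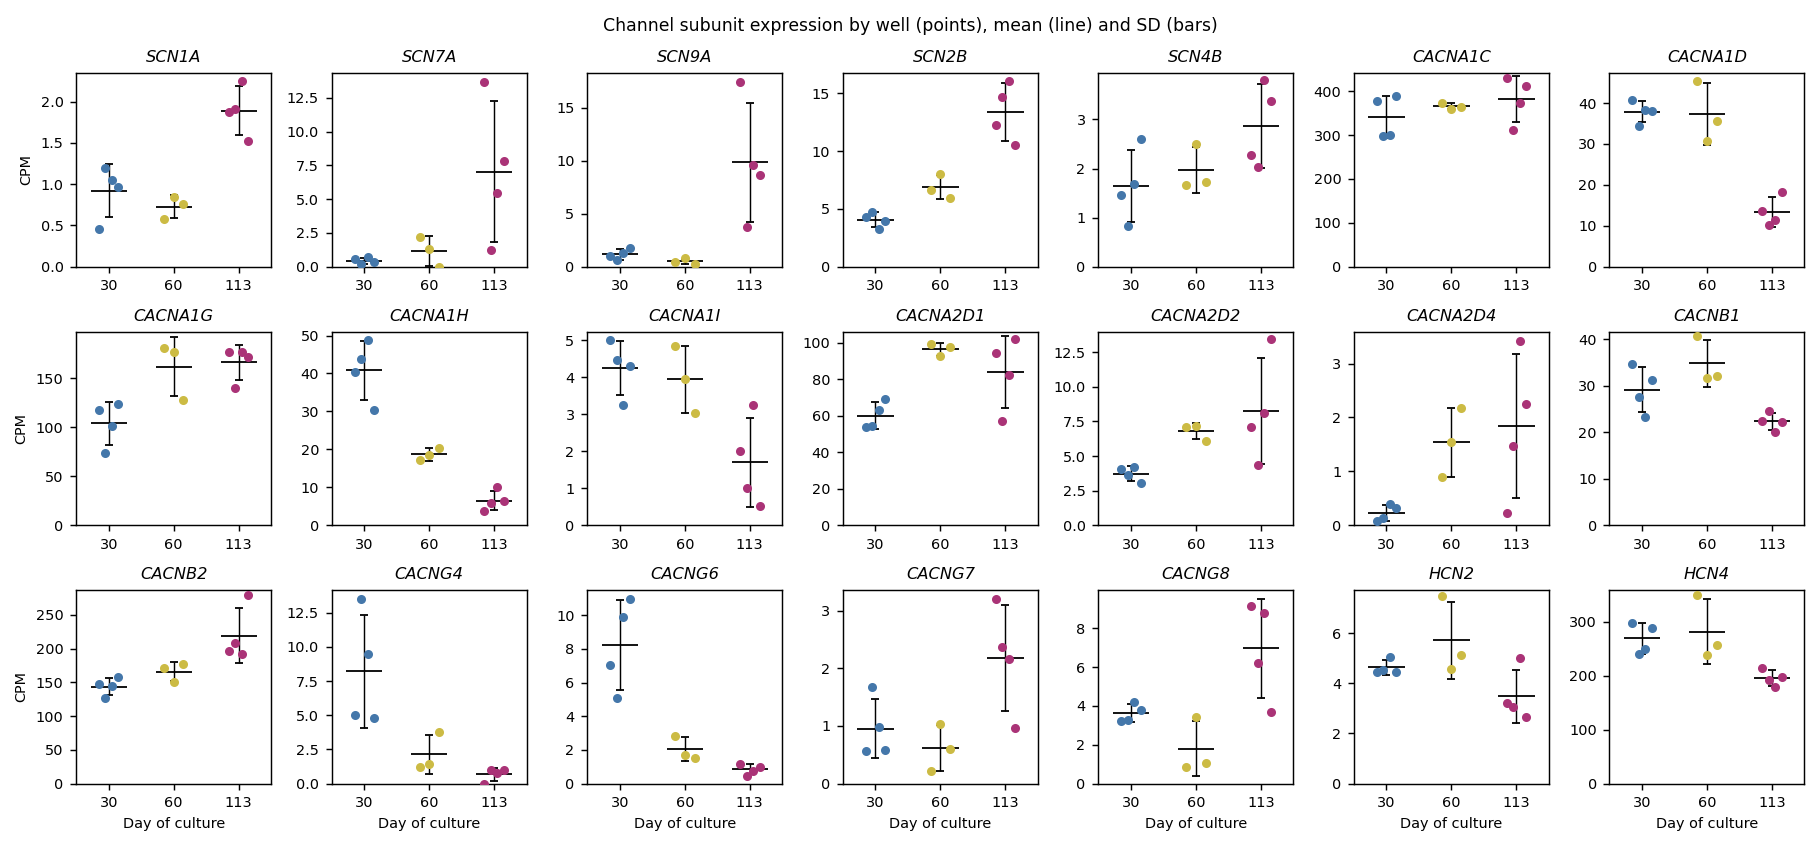
CPM of 21 channel genes by day of culture, with each well as a point (blue Day 30, yellow Day 60, purple Day 113), the day mean as a line and the SD as bars, on linear axes from 0 that differ between panels. CACNA1H and CACNG6 step down and SCN2B steps up at both intervals, CACNA1D and HCN4 drop on Day 113 only, and CACNA2D1 steps up by Day 60.

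Of 38 genes known to bind or regulate these channels, 36 were in the table. Between Day 30 and Day 60, 7 of the 36 (19.4%) were called, 6 higher and 1 lower, against the 10.3% of all genes given above. Day 113 against Day 60 gave 13 (36.1%), 7 higher and 6 lower, against 24.0% (9, with 4 higher and 5 lower, without Day 113 well 3), and Day 113 against Day 30 gave 15 (41.7%), 9 higher and 6 lower, against 34.5%. The 12 sodium channel partners held 7 of the 15, 5 higher and 2 lower.

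GPD1L, an enzyme-like protein that supports sodium channel trafficking, stood at 16.9, 19.9, 20.3 and 17.6 CPM on Day 30, 34.8, 26.9 and 28.3 on Day 60 and 108, 113, 116 and 107 on Day 113. No day overlapped another, and Day 113 was above Day 30 by 2.57 on the log2 scale (SE 0.11, edgeR adjusted p = 1.65e-10). FGF12, a fibroblast growth factor homologous factor that binds the sodium channel tail, had 30.9, 32.6, 23.6 and 47.2 CPM on Day 30, 102, 71.0 and 96.8 on Day 60 and 249, 249.7, 269 and 389.7 on Day 113, again in 3 separate ranges (log2 fold change 3.11 for Day 113 against Day 30, adjusted p = 2.90e-08). Its relative FGF14 went from at most 0.329 CPM on Day 30 to 1.53, 3.60, 4.25 and 4.77 on Day 113 (adjusted p = 0.000256). Of the same family, FGF11 and FGF13 fell from Day 60 to Day 113, with log2 fold changes of -1.06 (edgeR adjusted p = 8.62e-05) and -0.55 (0.00471). Against Day 30, FGF11 was also lower on Day 113 (adjusted p = 0.000169), and FGF13 was not called (0.272). CAV3, the muscle caveolin, rose from 0.993, 1.03, 0.658 and 1.79 CPM on Day 30 to 5.74, 7.08 and 4.92 on Day 60 (log2 fold change 2.40, adjusted p = 0.000377).

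Among calcium channel partners, the calmodulin genes CALM2 and CALM3 were called in no pair of days. STAC2, an adaptor that slows calcium channel inactivation, rose from 0.535, 0.200, 0.592 and 1.06 CPM on Day 30 to 6.06, 4.24 and 3.53 on Day 60 (adjusted p = 0.00165). BIN1, a membrane-shaping protein of the T-tubules, stood at 13.3, 22.5, 15.6 and 10.3 CPM on Day 30, 4.95, 7.26 and 6.88 on Day 60 and 10.5, 7.20, 11.7 and 8.95 on Day 113. Its Day 60 wells were all below Day 30 (log2 fold change -1.28, SE 0.26, edgeR adjusted p = 0.00467), and its call for Day 113 against Day 30 (log2 fold change -0.68, adjusted p = 0.0298) was lost without Day 30 well 2 or 3 or Day 113 well 2 or 4 (0.0592 to 0.155). AKAP5, a scaffold for protein kinase A, was higher on Day 113 than on Day 60 by 1.28 on the log2 scale (adjusted p = 0.001). REM2, a small GTPase that inhibits calcium channels, was lower on Day 113 than on Day 30 by a log2 fold change of -1.63 (adjusted p = 0.00696), and its call against Day 60 was lost without any of 8 wells (Day 30 wells 1, 3 and 4, Day 60 wells 2 and 3, and Day 113 wells 1 to 3), at 0.058 to 0.226.

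Of the 4 pacemaker channel partners, IRAG1 (listed as MRVI1) was called on Day 113 against Day 60 (log2 fold change 0.71, adjusted p = 0.0208), which was lost without Day 60 well 2 (0.0814) or Day 113 well 3 (0.0591). In the sodium leak channel complex, UNC80 rose early (1.31, adjusted p = 0.00197) and NALF1 (listed as FAM155A) was higher on Day 113 than on Day 30 (1.76, adjusted p = 0.00317). The pore gene NALCN was called in no pair of days. The NALF1 call for Day 113 against Day 60 (adjusted p = 0.0437) was lost without any of 7 wells (Day 30 wells 1 and 2, Day 60 wells 1 and 3, and Day 113 wells 1 to 3), at 0.0518 to 0.142.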

How the data were processed

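Poly(A) RNA libraries of 11 wells were analysed. The authors deposited whole-number read counts for 19990 gene symbols, with no normalization. Per the submitters' processing notes, the tools were STAR 2.5.3a and featureCounts 2.0.3 and the build was hg38. The annotation and whether counting used strand are not given in the sources used here. Exons of 17 channel genes overlap another gene in GENCODE v29 (opposite strand for most), so their counts are uncertain to that extent. For CACNA1C, CACNA1D, CACNA1H and CACNA2D2 an overlapping gene is in the table. For the rest of the 17, SCN9A and SCN1A among them, it is not, so its level could not be checked. The authors also deposited TPM values, which were checked and not used: the gene length implied by count and TPM did not repeat between libraries (median Spearman rho over genes -0.0022, 55 library pairs).

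All genes were fitted with edgeR 4.0.16 in R 4.3.3 (glmQLFit and glmQLFTest, TMM factors 0.966 to 1.04, day as the only factor, 11 libraries). The low-count filter (filterByExpr, minimum count 10) removed no gene, so all 35 channel genes described were tested. The table as deposited has no row for SCN10A, HCN3, CACNG1, CACNG2, CACNG3 or CACNG5, so the shares called do not cover those family genes. P-values were adjusted by Benjamini-Hochberg over 19990 genes in each comparison, with a threshold of 0.05. CPM used TMM library sizes. A count of 0 was given an upper limit of 3 counts per library. Ratios used a pseudocount of 0.5 counts, two-sided exact permutation tests (Python 3.11.15) and adjustment over 12 tests, of which 9 are given. Exon lengths for CPM per kb came from GENCODE v29. The fit was tested on simulated data.

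Values of every well are given for channel genes that reached a mean of 1 CPM on some day and passed the threshold in a pair of days, and for 9 cardiac subunits called or not. Partners are named, at most 4 per channel class, by size of change, and FGF11, FGF13, CALM2, CALM3 and NALCN beside them. A further 3 genes that the rule on symbols takes and 1 partner are not reported here. The members and lists were chosen with earlier results of these data known. Replicate numbers do not pair the wells in the labels. Alternatives were RLE scaling, other filters, DESeq2 1.42.0, limma-voom (limma 3.58.1), a threshold of 0.01, a replicate block and leaving out each well.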

Additional observations from a re-analysis of the deposited data

Results flagged for a closer look

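In 5 of 98 groups of 4 wells (5.10%), a well stood apart by Dixon's test at the 95% level, and chance gives about 1 in 20. CACNA1F had 1.44 CPM in Day 113 well 4, against 0, 0 and 0.143 in the other Day 113 wells. CACNA1G was lowest in Day 113 well 2, at 140.0 CPM. CACNB4 had 3.20 CPM in Day 113 well 3, against 0.682 to 1.01 in the others. HCN2 was at 5.07 CPM in Day 30 well 3, against 4.47 to 4.54. The partner FGF12 had 390 CPM in Day 113 well 4, against 249 to 269.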

How the results depend on the processing

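Counts of called channel genes stayed within 1.5 times under RLE scaling, other filters, limma-voom and DESeq2. At an adjusted p under 0.01 the counts were 3 for Day 60 against Day 30, 7 for Day 113 against Day 60, and 2 for the difference between intervals. Leaving out each well gave 4 to 7, 7 to 11, 13 to 17 and 15 to 18 called genes for the first interval, the second interval, the whole period and any change, and 1 to 5 for the difference between intervals, with 7 in the second interval and 1 in that difference without Day 60 well 1. The difference between intervals was also called for 2 or 3 genes without Day 30 well 2 or 3, Day 60 well 2 or 3, or Day 113 well 3. The calls that single wells ended stand beside each gene. DESeq2 split its Day 113 against Day 60 calls into 6 higher and 9 lower, against 7 and 6, and its Day 113 against Day 30 calls into 13 and 9, against 8 and 8. Same-numbered wells of different days correlated at 0.023 to 0.076 in 10 pairs, all positive but under the 0.1 set for pairing. Wells of other numbers correlated at -0.078 to 0.069. Of the 11 wells, 8 correlated best with their own number in every other day, a hint from the data and not from the design, and the labels name no pairing. With the replicate block, 6, 10, 17 and 19 channel genes were called in these comparisons, 6 for the difference between intervals, and 9, 13 and 16 partners. Calls that the block ended were SCN2B on Day 60 against Day 30 (adjusted p = 0.0521) and, on Day 113 against Day 60, SCN1A (0.0737), SCN7A (0.0727), SCN4A (0.158) and REM2 (0.0639). Calls gained elsewhere were CACNA1I and HCN2 (Day 113 against Day 60; DESeq2, and without Day 113 well 3, for CACNA1I also limma-voom), SCN1A (Day 113 against Day 30; DESeq2 and limma-voom), SCN4B (Day 113 against Day 30; without Day 30 well 4), and CACNA2D2 and CACNG4 (Day 60 against Day 30; without Day 113 well 2 or 4 and in DESeq2, and without Day 113 well 1), at adjusted p of 0.00807 to 0.0496.

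Some uncalled changes turned sign. For HCN2 to HCN4 on Day 113 against Day 30 the log2 ratio difference, 0.002, ran from -0.232 to 0.122 over the left-out wells (-0.066 without Day 30 well 1, -0.052 without Day 30 well 4, -0.232 without Day 113 well 3). With the replicate block, log2 fold changes were -0.005 for CACNA1C, -0.018 for CACNA1G and -0.351 for CACNA2D4 (Day 113 against Day 60) and 0.043 for CACNA1D (Day 60 against Day 30). In limma-voom they were -0.244 for CACNA2D4 (Day 113 against Day 60) and -0.256 for SCN7A (Day 60 against Day 30), and with a filter at 1 CPM 0.015 for CACNA1D. With single wells left out, the first interval ran from -0.163 to 0.101 for CACNA1D, -0.266 to 0.072 for CACNA1I and -0.099 to 0.173 for HCN4. The second interval ran from -0.002 to 0.147 for CACNA1C, -0.113 to 0.121 for CACNA1G, -0.058 to 0.489 for CACNA2D2, -0.237 to 0.629 for CACNA2D4 and -6.763 to 0 for SCN4A, whose call ended. The cause was not tested. Genes under about 1 CPM rest on few counts, and 3 or 4 wells a day limit every test.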
